A study of Homo sapiens with 2 samples.

Results

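The genes described here encode the enzymes that load amino acids onto tRNA, and the proteins that hold some of them together. They were 39 protein-coding genes chosen by symbol from a list: 20 cytosolic aminoacyl-tRNA synthetases, 16 mitochondrial ones and 3 scaffold proteins, out of 20298 protein-coding genes and 741078 listed features. Each of the 39 was found in the tables. Their RNA was measured by CLIP-seq of hTrmt13 in cells of MDA-MB-231, a human breast carcinoma line, for which the labels give neither a genotype nor a treatment. In CLIP-seq a protein is isolated with an antibody together with the RNA crosslinked to it, and that RNA is sequenced. hTrmt13 is a tRNA methyltransferase, and the assay was made to find the tRNAs that it binds. The 2 libraries are replicates 1 and 2 of 1 group, and 0 controls, whether input RNA or another antibody, entered the work. A count therefore describes what was recovered with the enzyme, not an enrichment, and no difference between conditions could be tested. The labels do not tell if these were separate cultures, and the SDs may hold technical spread alone.

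Each aminoacyl-tRNA synthetase joins one amino acid to the tRNAs that carry its anticodons, and this pairing is what reads the genetic code. Human cells hold one set of these enzymes for the cytosol and another, also encoded in the nucleus, for the mitochondrial matrix, where the mitochondrial genome's own tRNAs are charged. GARS and KARS serve both compartments from one gene each. Several cytosolic enzymes sit in a large multisynthetase complex, assembled around the scaffold proteins AIMP1, AIMP2 and EEF1E1, while others work as free enzymes.

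Replicate 1 had 27907799 counts of the first mate (R1) and 11246823 of the second (R2), and replicate 2 had 20590398 and 8793089. The R1 counts are used below wherever R2 is not named. A count was divided by the library total and given as CPM. Because tRNA filled much of each library, the same was done with the summed counts of the 20195 nuclear protein-coding genes that overlap no tRNA feature as the total, called mRNA-scaled CPM below. Those genes held 5.39% of replicate 1 and 10.6% of replicate 2. Of 5 genes known to mark this line, VIM had 382 and 722 counts and MSN 203 and 321 in replicates 1 and 2, while CD44 had 12 and 7, AXL 16 and 12, and S100A4 0 and 1. The 5 genes known as low or absent in it had 40 and 51 counts for CDH1, 20 and 27 for EPCAM, 20 and 24 for KRT8, 4 and 20 for ESR1, and 0 and 4 for PGR. Of the markers of other cell types, ALB and CD3E had 0 counts in both libraries, and HBB, PTPRC and SYP had between 5 and 29. CD44, AXL and S100A4 were thus low in a line in which they are known to be expressed. CDH1, EPCAM and KRT8, known as low or absent in it, each had more counts than these genes in both libraries. The part of these markers in the results was not tested.

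All 39 genes were recovered with a mean count of at least 10, a level that 65.1% of all protein-coding genes reached. Their counts summed to 5523 in replicate 1 and 9276 in replicate 2. Of the mRNA-scaled total they held 0.396% ± 0.0402 (SD, n = 2). Replicate 1 lay at 0.367%, with exact Clopper-Pearson 95% bounds of 0.358% and 0.377%, and replicate 2 lay at 0.424%, with bounds of 0.416% and 0.433%. Of the whole library the genes held 0.0324% ± 0.0179 (SD, n = 2). The cytosolic enzymes held 0.279% ± 0.0301 of the mRNA-scaled total, the mitochondrial enzymes 0.103% ± 0.00745 and the scaffold genes 0.0135% ± 0.00267 (SD, n = 2 each). Intervals in this text cover counting error only and treat each read as an independent molecule. PCR reads without molecular identifiers are not independent molecules, so the intervals may be too narrow. Beyond counting error means below only that a value lay outside such an interval.

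Cytosolic enzymes were recovered at higher levels than mitochondrial enzymes. The median over genes of the mean CPM was 9.80 for the 20 cytosolic enzymes, 5.02 for the 16 mitochondrial enzymes and 3.88 for the 3 scaffold genes, beside 3.41 for the 13220 protein-coding genes past the minimum. Of the 39 genes, 32 lay above that protein-coding median, a level that by definition has as many protein-coding genes above it as below. They were 19 of the 20 cytosolic enzymes, 10 of the 16 mitochondrial enzymes and 3 of the 3 scaffold genes. Levels of different genes can be compared only per length. Per kilobase of merged exons (GENCODE release 29), the medians were 3.23 CPM for cytosolic enzymes, 1.64 for mitochondrial enzymes and 2.51 for scaffold genes. The median was 0.922 for the 13141 protein-coding genes past the minimum that had an exon length. On that scale 34 of the 39 genes lay above the protein-coding median, and VARS, HARS2, MARS2, PARS2 and VARS2 lay below it. Per kilobase of the listed gene span, which includes introns, the medians were 0.292, 0.123 and 0.133 CPM for cytosolic, mitochondrial and scaffold genes, beside 0.0897 for protein-coding genes.

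**Figure D1:**
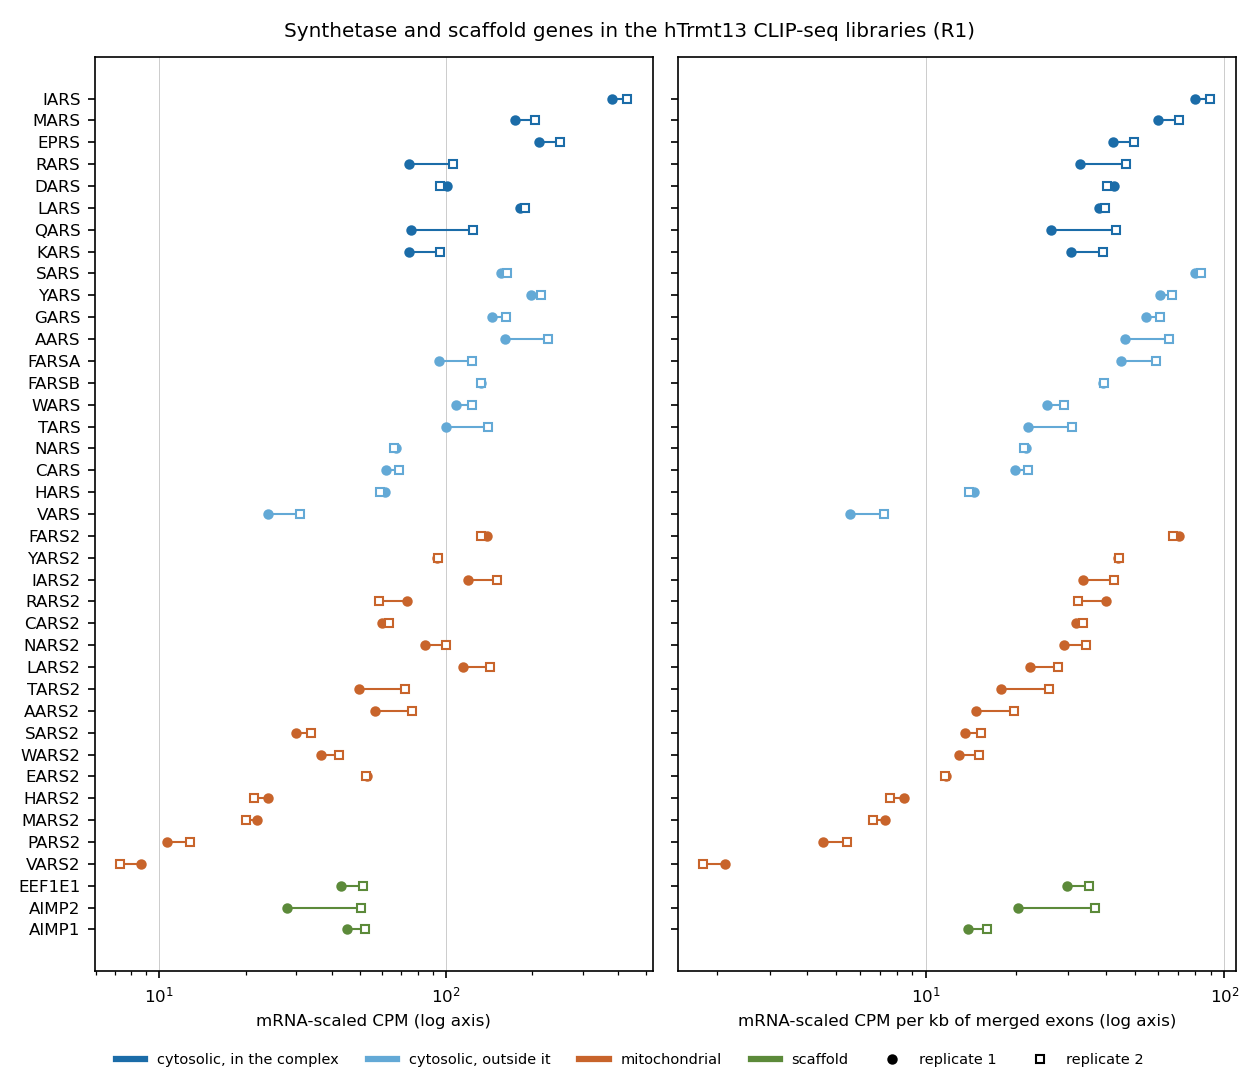
Level of each of the 39 genes in replicate 1 (filled circles) and replicate 2 (open squares), as mRNA-scaled CPM (left) and mRNA-scaled CPM per kilobase of merged exons (right), on log axes, ordered within each class. IARS leads on both scales and VARS2 is lowest on both, and the cytosolic and mitochondrial classes overlap.

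Among the 8 enzymes of the multisynthetase complex, IARS, which charges isoleucine tRNA, had the highest count of the 39 genes. Replicate 1 held 572 of its counts and replicate 2 held 940, or 380.5 and 429.9 mRNA-scaled CPM, and held 10.4% and 10.1% of all counts of the 39 genes. Its mean of 33.1 ± 17.8 CPM (SD, n = 2) lay at percentile 98.9 of the protein-coding genes past the minimum. It also led per kilobase of exons, with 6.90 ± 3.71 CPM (SD, n = 2). On hg19 its listed span is chr9:94972489-95056038, minus strand.

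A small nucleolar RNA of the H/ACA class, SNORA84, lies inside that span on the same strand (chr9:95054743-95054875 on hg19). RNAs of this class guide the change of uridine to pseudouridine in other RNAs. Its sequence is shown because it is the one small RNA inside any of the 39 genes that held more than 4 R1 counts in a library. It comes from the GENCODE release 29 transcripts (GRCh38 chr9:92292461-92292593, minus strand), written as DNA. Capitals mark a match to the H box (ANANNA, N being any base) and the ACA box 3 bases before the 3′ end.
SNORA84: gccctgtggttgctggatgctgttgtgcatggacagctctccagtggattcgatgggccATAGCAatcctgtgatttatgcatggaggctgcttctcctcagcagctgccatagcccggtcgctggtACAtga
SNORA84 held 23 counts in replicate 1 and 9 in replicate 2, so its counts were lower in the library in which IARS was higher. With them taken off, IARS had 549 and 931 counts and still led the 39 genes.

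EPRS was the next highest of the complex's enzymes. It charges both glutamate and proline tRNAs from one polypeptide, and it had 318 and 546 counts, or 212 and 250 mRNA-scaled CPM, in replicates 1 and 2. MARS, the methionine enzyme, had 262 and 448 counts, and LARS, the leucine enzyme, had 272 and 414. All 3 lay at or above percentile 93.8 of the protein-coding genes past the minimum by CPM. The other 4 of the complex's enzymes were closer to each other. DARS, the aspartate enzyme, had 152 and 209 counts, QARS, the glutamine enzyme, had 114 and 273, RARS, the arginine enzyme, had 112 and 232, and KARS, the lysine enzyme, had 112 and 209. QARS is encoded in the shortest span of the 20 cytosolic genes, 9.20 kilobases, and was the highest of all 39 genes per kilobase of span, with 0.942 CPM. Its rank per kilobase of exons was 16.

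No order between enzymes inside and outside the complex held on all length scales. The median per kilobase of exons was 3.34 CPM for the 8 complex-bound enzymes and 2.69 for the 12 free enzymes. Per kilobase of span it was 0.289 and 0.292, and per kilobase of the longest coding sequence it was 4.20 and 5.58. The complex-bound enzymes together held 0.138% ± 0.0158 of the mRNA-scaled total and the free enzymes 0.141% ± 0.0143 (SD, n = 2 each). Both sets come from the same libraries, so these SDs do not measure the difference between them. The free enzymes held 0.131% against 0.127% in replicate 1 and 0.151% against 0.150% in replicate 2, which are close values.

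The free cytosolic enzymes spanned 6.38 to 81.8 mRNA-scaled CPM per kilobase of exons, beside 34.7 to 84.6 for the complex-bound ones. YARS, the tyrosine enzyme, had 297 and 471 counts in replicates 1 and 2, AARS, the alanine enzyme, had 242 and 496, SARS, the serine enzyme, had 234 and 356, and GARS, the glycine enzyme, had 218 and 354. SARS ranked 2nd of all 39 genes per kilobase of exons, with 6.60 ± 3.24 CPM (SD, n = 2), next to IARS. No other listed feature than piRNAs overlaps SARS. FARSA and FARSB encode the alpha and beta subunits of the phenylalanine enzyme. FARSA had 142 and 269 counts and FARSB had 199 and 291. Per kilobase of exons the 2 subunits lay at 52.0 ± 9.66 mRNA-scaled CPM for FARSA and 39.4 ± 0.151 for FARSB (SD, n = 2 each).

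VARS, the valine enzyme, stood at the low end of the cytosolic enzymes. It had 36 and 68 counts in replicates 1 and 2, or 23.9 and 31.1 mRNA-scaled CPM. By mean CPM and per kilobase of exons it was the only cytosolic enzyme under the protein-coding median. Per kilobase of span 20 of 20 cytosolic enzymes lay above that median of 0.0897 CPM. On the span scale VARS had 0.125 CPM, and CARS with 0.0936, DARS with 0.0982 and FARSB with 0.124 lay lower. The next lowest per kilobase of exons, HARS, the histidine enzyme, had 92 and 129 counts and 14.2 ± 0.367 mRNA-scaled CPM per kilobase, against 6.38 ± 1.17 for VARS (SD, n = 2 each). The libraries of the 2 genes did not overlap on that scale. The other free enzymes, CARS for cysteine, NARS for asparagine, TARS for threonine and WARS for tryptophan, lay between 93 and 163 counts in replicate 1 and between 144 and 307 in replicate 2.

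The scaffold genes were at the lower end of the 39 by count. AIMP1 had 68 and 114 counts in replicates 1 and 2, AIMP2 had 42 and 111, and EEF1E1 had 65 and 112. EEF1E1 had 32.3 ± 3.87 mRNA-scaled CPM per kilobase of exons, AIMP2 had 28.6 ± 11.7 and AIMP1 had 14.9 ± 1.50 (SD, n = 2 each). AIMP2 in replicate 1 lay between the values of AIMP1 and EEF1E1, and in replicate 2 it lay above both. Each of these genes overlaps a longer listed gene with more counts. The span of AIMP1 shares 5952 bases with TBCK on the other strand (220 and 325 counts), that of AIMP2 shares 1591 bases with EIF2AK1 on the other strand (128 and 258), and that of EEF1E1 shares 29171 bases with the readthrough gene EEF1E1-BLOC1S5 on the same strand (112 and 156).

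Among the mitochondrial enzymes, FARS2, the phenylalanine enzyme, had the highest count in replicate 1 and IARS2, the isoleucine enzyme, in replicate 2. FARS2 had 210 and 291 counts, and IARS2 had 180 and 331. LARS2 for leucine followed with 172 and 312, YARS2 for tyrosine with 140 and 205 and NARS2 for asparagine with 127 and 219. FARS2 ranked 3rd of all 39 genes per kilobase of exons, with 69.0 ± 2.36 mRNA-scaled CPM (SD, n = 2). Its listed span is 510.5 kilobases, the longest of the 39, and per kilobase of span it was the lowest, with 0.0212 CPM.

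At the low end stood VARS2, with 13 counts in replicate 1 (exact 95% Poisson interval 6.92 to 22.2) and 16 in replicate 2 (9.15 to 26.0). PARS2, the proline enzyme, had 16 and 28 counts, MARS2, the methionine enzyme, had 33 and 44, and HARS2, the histidine enzyme, had 36 and 47. VARS2 charges valine, as VARS does, and these were the lowest members of the mitochondrial and the cytosolic set by count and per kilobase of exons. Both also lie on chromosome 6, VARS at 31745295-31763730 and VARS2 at 30876019-30894236. The part of the shared amino acid or of the shared chromosome in the low counts was not tested. Per kilobase of span neither VARS nor VARS2 was the lowest of its set. FARS2 with 0.0212 CPM and WARS2 with 0.0296 lay under VARS2 with 0.0341. At these counts the intervals of VARS2 and PARS2 overlapped in both replicates. The other mitochondrial enzymes, AARS2, CARS2, EARS2, RARS2, SARS2, TARS2 and WARS2, lay between 45 and 110 counts in replicate 1 and between 74 and 166 in replicate 2.

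A cytosolic and a mitochondrial gene could be set side by side for 16 pairs that charge the same amino acid, EPRS serving in a pair with EARS2 and in another with PARS2. Per kilobase of exons the cytosolic gene was higher in both replicates in 12 pairs, and in 11 of them the exact 95% interval of the ratio lay above 1 in both. The exception was TARS over TARS2. The median ratio over the pairs was 1.86. The widest differences were MARS over MARS2, 8.25-fold in replicate 1 (interval 5.73 to 12.2) and 10.6-fold in replicate 2 (7.75 to 14.8), EPRS over PARS2, 9.30-fold and 9.13-fold, and SARS over SARS2, 5.92-fold and 5.48-fold. MARS2 and SARS2 each overlap a same-strand feature with more counts than their own, described below, so these ratios are uncertain.

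The cytosolic gene was lower in both replicates in 3 pairs. CARS over CARS2 had ratios of 0.622 (interval 0.460 to 0.840) and 0.654 (0.516 to 0.830) in replicates 1 and 2, and NARS over NARS2 had 0.748 (0.570 to 0.980) and 0.619 (0.498 to 0.767). Both stayed under 1 beyond counting error. FARSA over FARS2 had 0.640 (0.513 to 0.795) in replicate 1 and 0.874 (0.738 to 1.04) in replicate 2, so replicate 2 did not separate the 2 genes on this scale. RARS over RARS2 changed side, with 0.818 (0.623 to 1.07) and 1.46 (1.17 to 1.82).

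The length used changed which pairs were the exceptions. Per kilobase of listed span the cytosolic gene was higher in both replicates in 15 pairs, in 12 of them beyond counting error (not for AARS, CARS and HARS over AARS2, CARS2 and HARS2), and the median ratio was 1.97. On that scale CARS, NARS, FARSA and RARS were all higher than their partners in both replicates, CARS within counting error in replicate 1. The exception was MARS over MARS2, at 0.569 (interval 0.395 to 0.844) and 0.730 (0.535 to 1.02) in replicates 1 and 2. MARS2 is listed over 3.02 kilobases, all of it exon, while MARS spans 42.1 kilobases. The ratio of FARSA over FARS2 went with the length most of all pairs: per kilobase of span it was 29.9 in replicate 1 and 40.8 in replicate 2. Per kilobase of the longest coding sequence the cytosolic gene was higher in 12 pairs and lower in 3, as on the exon scale, with a median ratio of 2.12. All 3 lower pairs, FARSA over FARS2 included, were then under 1 beyond counting error in both replicates, and of the 12 higher pairs LARS over LARS2, in place of TARS over TARS2, was not resolved.

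**Figure D2:**
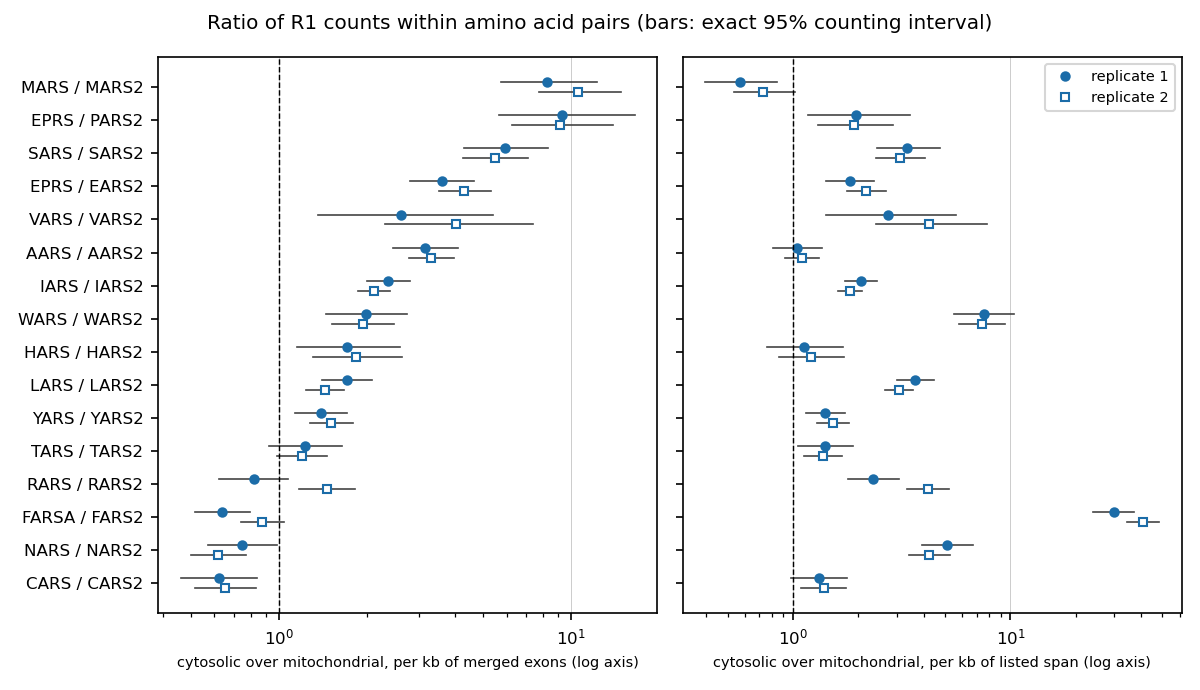
Ratio of the cytosolic over the mitochondrial gene for 16 pairs, per kilobase of merged exons (left) and of listed span (right), on log axes, with replicate 1 as filled circles and replicate 2 as open squares; bars are exact 95% counting intervals and the dashed line marks a ratio of 1. CARS, NARS and FARSA lie left of the line on the exon scale and right of it on the span scale, and MARS does the opposite.

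Across the 39 genes Spearman's rho between count and span was 0.591 in replicate 1 and 0.504 in replicate 2, and between count and exon length it was 0.259 and 0.299. For the 16 mitochondrial enzymes rho with span was 0.762 and 0.679, against -0.138 and 0.0235 with exon length. Over the 13220 protein-coding genes past the minimum rho with span was 0.401 and 0.350. With exon length, known for 13141 of them, it was 0.316 and 0.292, close to the values of the 39 genes for exon length. These are descriptions across genes that share the same libraries, and genes are not replicates. Whether the reads fell in exons or introns cannot be read from counts per gene.

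Other listed features overlap most of the 39 genes, and a read in the shared stretch can count for both. None of the 39 overlaps a tRNA feature, 8 overlap a small RNA feature, 24 overlap a feature on the other strand, and 9 overlap no listed feature other than piRNAs. The highest count of any piRNA within a gene's span was 4. A Y RNA inside VARS had 1 and 4 R1 counts but 7 and 4 R2 counts, beside 27 and 71 R2 counts for VARS itself. Whether strand was used in counting is not given in the sources used here, so reads of the 2 strands cannot be told apart. WARS holds the antisense gene RP11-638I2.8 entirely within its span, over 20272 bases, and that feature had 96 and 155 counts, 58.9% and 57.6% of those of WARS. CARS holds CTD-2544D21.1 in the same way, with 21 and 35 counts, LARS2 holds RP11-107O13.1, with 28 and 58, NARS2 holds RP11-843A23.1, with 22 and 37, and FARSA holds CTC-425F1.2, with 20 and 47.

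Some pairs of neighbours share only their ends. HARS and HARS2, which lie head to head on chromosome 5 on opposite strands, share 437 bases. HARS also shares 221 bases with WDR55 on the other strand, and HARS2 shares 639 with ZMAT2 on its own strand. Overlaps of ends also join DARS with AC093391.2, GARS with AC005154.6, KARS with TERF2IP, LARS with RP11-118M9.3, WARS with WDR25, YARS with S100PBP, CARS2 with ING1, EARS2 with UBFD1, SARS2 with MRPS12 and WARS2 with RP11-418J17.1, all on the other strand, with between 129 and 7375 shared bases. Longer stretches are shared by NARS2 with RP11-452H21.1 (8089 bases), YARS2 with DNM1L (18161 bases) and AARS2 with TMEM151B (7853 bases) and with another protein-coding gene at chr6:44240931-44346694 (all 13673 bases of AARS2). For AARS2, which had 85 and 166 counts, the counts of that gene were higher than its own, 106 and 187. Same-strand overlaps joined SARS2 with the readthrough gene CTC-360G5.8, MARS2 with AC011997.1, in which it lies whole, and VARS2 with GTF2H4. CTC-360G5.8 shares 15493 bases with SARS2 and had 126 and 190 counts, against 45 and 74 for SARS2. AC011997.1 had 66 and 107 counts, against 33 and 44 for MARS2. GTF2H4 had 7 and 7 counts, against 13 and 16 for VARS2. The values of these genes are uncertain to that extent. Of the pseudogenes named after the 39 genes, FARSBP1 had 2 and 3 counts and KARSP3 had 2 and 7.

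The 39 genes moved with other protein-coding genes between the libraries. As CPM, 39 of 39 were higher in replicate 2 than in replicate 1, as were 98.8% of protein-coding genes past the minimum, and 28 of 39 were at least 2-fold higher, against 64.0% of protein-coding genes and 60.2% of all features. The median log2 ratio of CPM, replicate 2 over replicate 1, was 1.16 for the 39 genes, 1.11 for protein-coding genes and -0.01 for tRNA features. On the mRNA scale 0 of 39 were at least 2-fold higher in replicate 2, beside 2.93% of protein-coding genes, and 0 of 39 at least 2-fold lower, beside 1.10%. The median log2 ratio was then 0.18 for the 39 genes and 0.13 for protein-coding genes, and 30 of 39 were higher in replicate 2, beside 66.6%.

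AIMP2 differed most between the libraries. It had a log2 ratio of mRNA-scaled CPM of 0.86, from 42 counts in replicate 1 and 111 in replicate 2, and QARS had 0.72. RARS2 had the lowest ratio, -0.32, from 110 and 128 counts. Of the 9 genes that were lower in replicate 2 on this scale, 6 were mitochondrial enzymes (EARS2, FARS2, HARS2, MARS2, RARS2 and VARS2) and 3 cytosolic (DARS, HARS and NARS). Higher in replicate 2 were 10 of 16 mitochondrial enzymes, close to the 66.6% of protein-coding genes, 17 of 20 cytosolic enzymes and 3 of 3 scaffold genes. With the libraries scaled by TMM, the edgeR common dispersion over all features past the minimum gave a coefficient of variation of 0.192 between the replicates. Across the 39 genes the log2 CPM of the replicates had Pearson's r of 0.976 and Spearman's rho of 0.974, a description across genes, beside 0.972 and 0.959 over all 18723 features.

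**Figure D3:**
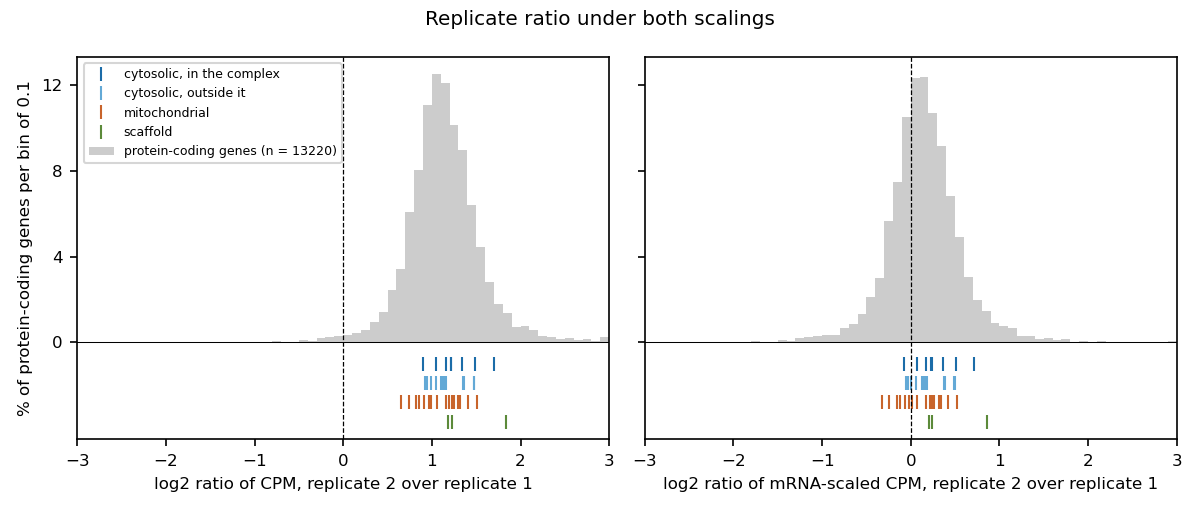
Log2 ratio of replicate 2 over replicate 1 for the 39 genes (coloured ticks under the axis, by class) and for 13220 protein-coding genes (grey histogram, % of genes per bin), by CPM (left) and by mRNA-scaled CPM (right); ratios beyond the axis are drawn in the end bins. The ticks lie under the body of the histogram on both scales, around 1.16 by CPM and around 0.18 by mRNA-scaled CPM.

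By median over genes, R2 counts relative to R1 counts were close for the 39 genes and for protein-coding genes, while by sum the 39 genes lay higher. The counts do not tell if both mates of one pair were counted. R2 counts came to 87.2% of R1 counts in replicate 1 and 86.0% in replicate 2, summed over the 39 genes, beside 78.7% and 80.1% for all protein-coding genes free of tRNA and 42.7% and 41.5% for tRNA features. By median the 39 genes lay at 87.9% and 85.9%, protein-coding genes at 87.8% and 84.6%, and tRNA features at 40.2% and 38.4%. In 39 of 39 genes R2 held at least 0.5 of the R1 count in both replicates, as in 97.6% of protein-coding genes.

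EARS2 and IARS2 stood low in both libraries by this measure. EARS2, the glutamate enzyme, was at 72.5% and 76.5%, and IARS2 at 80.0% and 77.6%. Each holds a processed pseudogene on the other strand with counts in R1 and few in R2. AC002400.4 in EARS2 had 19 and 15 R1 counts but 1 and 5 in R2, and RP11-544K18.2 in IARS2 had 14 and 31 R1 counts but 0 and 1 in R2. Whether these counts enter those of EARS2 and IARS2 depends on the use of strand, and their part in the low values was not tested. RP11-544K18.2 held 7.78% of the R1 counts of IARS2 in replicate 1 and was named after its values were seen. VARS2 was at 53.8% in replicate 1 and 87.5% in replicate 2, from 13 and 16 R1 counts.

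**Figure D4:**
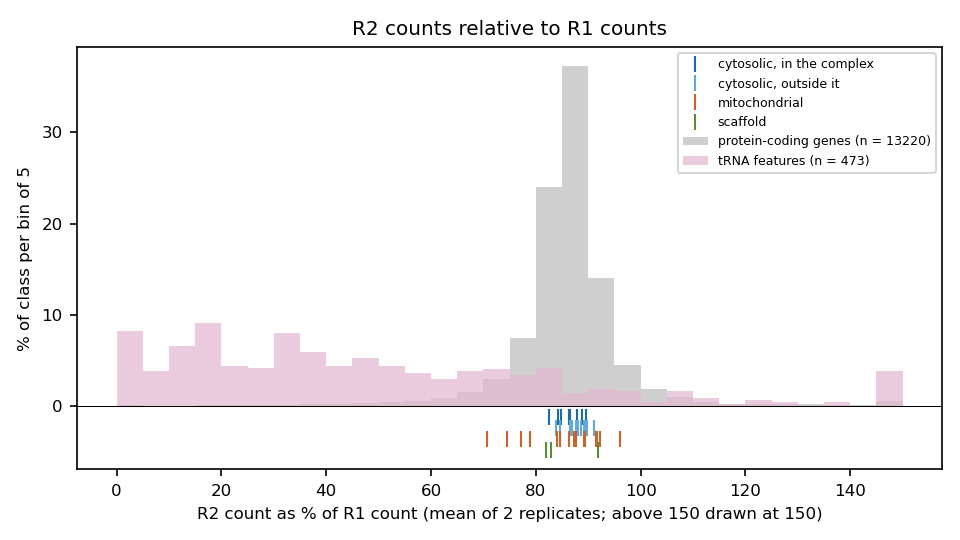
R2 count as a percentage of the R1 count, mean of both replicates, for the 39 genes (coloured ticks under the axis, by class), for 13220 protein-coding genes (grey) and for 473 tRNA features past the minimum (pink), as % of the class per bin of 5. The 39 genes lie with the protein-coding genes, and the tRNA features spread over lower values.

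The recovery of an enzyme's RNA was set beside that of the tRNAs it charges. Over 20 tRNA isotypes Spearman's rho between the summed CPM of the isotype's tRNA features and the CPM of its cytosolic enzyme was -0.03 by the mean of the replicates, and 0.09 with the enzyme per kilobase of exons. Pearson's r on the log2 scale was 0.08 by CPM and 0.26 with the enzyme per kilobase of exons. This is a description over isotypes that share the libraries, with EPRS entering for both Glu and Pro. Arginine tRNA was the highest of the isotypes with 188574 ± 14910 CPM (SD, n = 2), while RARS ranked 10th of the 20 entries per kilobase of exons with 3.37 ± 2.27 CPM. Lysine tRNA followed with 142709 ± 182 CPM, and KARS ranked 14th with 2.91 ± 1.78. Isoleucine tRNA ranked 12th with 9203 ± 325 CPM, while IARS ranked highest with 6.90 ± 3.71 (SD, n = 2 each). The SDs of the enzymes by CPM hold the rise in replicate 2 that most protein-coding genes shared, so they do not measure differences between enzymes. By mRNA-scaled CPM per kilobase of exons RARS had 39.9 ± 9.87, KARS 34.9 ± 6.12 and IARS 84.6 ± 7.30 (SD, n = 2 each).

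Valine was low on both sides. Its tRNA features had 807 ± 237 CPM and VARS had 0.533 ± 0.330 CPM per kilobase of exons (SD, n = 2 each), the lowest of the 20 entries in each case. A link between the low values of the tRNA and of the enzyme was not tested. Reads of a tRNA feature or of a gene are also subject to how reads with several matches were treated, which is not given in the sources used here.

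**Figure D5:**
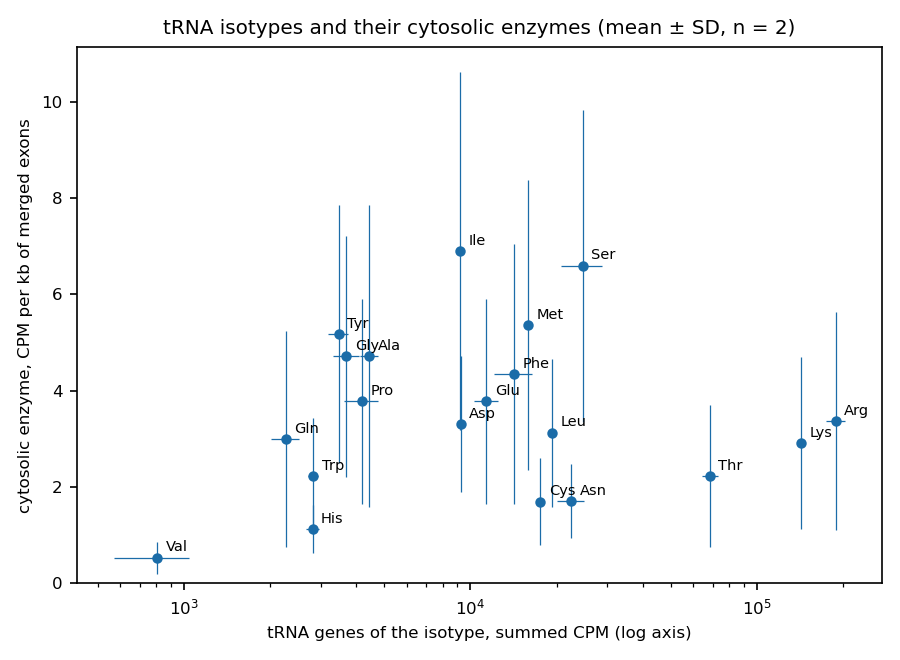
Summed CPM of the tRNA features of each of 20 isotypes (log axis) against CPM per kilobase of merged exons of the cytosolic enzyme that charges them; points are means and bars the SD over 2 replicates. Arg and Lys lie at the far right at middle height, Ile and Ser are highest, and Val is lowest on both axes.

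Other genes of tRNA charging and tRNA handling were recovered at lower median levels than the 39 genes. All 14 of 14 genes on this list passed the minimum count, beside 65.1% of protein-coding genes, and their median was 3.28 CPM, beside 3.41 for the protein-coding genes past it and 7.49 for the 39 genes. Per kilobase of exons it was 1.21 CPM, beside 0.922 for protein-coding genes and 2.64 for the 39 genes. PTRH2, a peptidyl-tRNA hydrolase of the mitochondrial outer membrane, had the most counts, 425 in replicate 1 and 693 in replicate 2. Overlaps with other listed features were looked up for the 39 genes only, not for these 14.

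The mitochondrial amidotransferase converts the glutamate that EARS2 has loaded onto the mitochondrial glutamine tRNA into glutamine. Of its subunits GATC had 168 and 283 counts, GATB had 63 and 94, and QRSL1 had 41 and 73. Per kilobase of exons GATC had 2.33 ± 1.29 CPM, against 1.08 ± 0.516 for GATB and 0.469 ± 0.275 for QRSL1 (SD, n = 2 each). The R2 counts of GATC were 70.8% and 68.9% of its R1 counts, lower than for any of the 39 genes in replicate 2. MTFMT, which adds the formyl group to the mitochondrial initiator methionine tRNA after MARS2 has charged it, had 32 and 47 counts, close to those of MARS2.

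The selenocysteine genes spread widely. EEFSEC, the elongation factor for selenocysteine tRNA, had 229 and 329 counts and SEPHS2, which makes the selenium donor, had 138 and 276. PSTK, the kinase that acts on the serine loaded onto that tRNA by SARS, had 54 and 90, and SEPSECS, which completes the selenocysteine, had 16 and 23, the fewest of the 14. The editing factors DTD1, AARSD1 and DTD2, which clear wrongly charged tRNA, had 89 and 137, 23 and 40, and 22 and 39 counts in replicates 1 and 2. XPOT, which exports tRNA from the nucleus, had 169 and 292.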

How the data were processed

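hTrmt13 CLIP-seq libraries of MDA-MB-231 cells were analysed, 2 replicates of 1 group, with 4 tables in all, 1 for each mate. The values as deposited by the authors are raw whole counts, 1 for each feature. The tools were Bowtie2 2.3.5.1 together with bedtools 2.24.0, on hg19 (GRCh37), per the submitters' processing notes. How multiply matching reads and strand were handled is not given in the sources used here. Per the labels' protocols, phosphates and base modifications were taken off the RNA (modifications with AlkB-type enzymes) before adaptor ligation, and PCR followed.

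Of 741091 lines in each table, 13 repeats were dropped. CPM, mRNA-scaled CPM and levels per kilobase were computed from R1 totals. Positions are from the tables, 1-based. Exon and coding lengths came from GENCODE release 29 (GRCh38), matched by gene ID for 39 of 39 genes. Ratios of 2 counts have exact binomial (Clopper-Pearson) 95% intervals and single counts exact Poisson ones. The coefficient of variation is from edgeR 4.0.16 (TMM, common dispersion) in R 4.3.3, tested on simulated data, and DESeq2 1.42.0 gave a second set of size factors. Other values were computed in Python 3.11.15 with pandas 2.3.3, numpy 2.4.6 and scipy 1.17.1, and figures drawn with matplotlib 3.10.9. With 1 group, no test between conditions was made.

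The genes and lists were chosen with earlier results of these data known. The text names the 39 genes, genes of the tRNA pathway list of 14 (the values of 1 are not reported here), the markers, and each listed feature that overlaps one of the 39 and holds at least 10% of its counts in either replicate. SNORA84, the Y RNA, RP11-544K18.2, and the pseudogenes FARSBP1 and KARSP3 fall outside it, and their choice came after their values were known. Alternatives were the R2 table, the sum of mates, other scalings and denominators, members with a small RNA left out, other minimum counts, each replicate left out and, added after the data were seen, exon and coding lengths.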

Additional observations from a re-analysis of the deposited data

How the results depend on the processing

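Of 83 alternative values, 56 stayed within the spread between replicates or within 1.5 times the main count, and 27 moved. With 2 libraries, leaving 1 out cannot move their mean by more than the SD, so the medians with 1 left out could hardly move. All 39 genes passed the minimum count of 10, so a lower minimum could not change the numbers of genes counted. Such values among the 56 say nothing about stability. Another table, denominator or length changes the scale of the median CPM per kilobase by construction. In the order cytosolic, mitochondrial, scaffold, complex-bound and free enzymes, the medians were 0.592, 0.228, 0.261, 0.564 and 0.610 from the R2 table, 3.62, 1.51, 1.62, 3.49 and 3.62 by mRNA-scaled CPM per kilobase of span, 3.23, 1.64, 2.51, 3.34 and 2.69 per kilobase of merged exons, and 4.83, 2.78, 3.95, 4.20 and 5.58 per kilobase of the longest coding sequence. Cytosolic enzymes stayed above mitochondrial ones in each of these. With 1 replicate left out the medians in the same order ranged from 0.185 to 0.393, 0.0778 to 0.167, 0.0797 to 0.186, 0.168 to 0.411 and 0.185 to 0.393, and rho between tRNA and enzyme from -0.0278 to -0.00828. That rho was -0.0511 for the sum of mates and 0.0857 with the enzyme per kilobase of exons. The 28 genes at least 2-fold higher in replicate 2 became 0 under TMM scaling, under DESeq2 size factors and under the mRNA scale. The 15 pairs with the cytosolic gene higher per kilobase of span became 9 when genes with a small RNA were left out. This removes pairs, MARS over MARS2 among them, and in every pair that remained the cytosolic gene was higher. The planned scaling by RefSeq coding length was not run, and GENCODE coding length was used in its place. No paired analysis was possible because all libraries form 1 group. Depth limits the lowest genes most: VARS2 rests on 13 and 16 counts.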
